A study of Mus musculus with 21 samples.

Results

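Cdkn1a and Trp53cor1 are neighbouring targets of the transcription factor p53 on mouse chromosome 17, and their locus was taken as every deposited p53 peak within 50 kb of the span from the left end of Trp53cor1 to the right end of Cdkn1a (mm10, positions 29057474 to 29100722). The rule found 4 distinct peaks of 16578 in all lists together. The list from cells with p53 (WT) held 4 of them, the list from cells without p53 (KO) held 0, and the authors' WT-specific list held 3. The peaks were mapped by CUT&RUN, in which an antibody directs a nuclease to cut out the DNA next to the bound protein, in ID8, an immortalized, untreated epithelial line from the ovarian surface of C57BL/6 mice. The p53 antibody was used on 2 WT samples (Trp53+/+) and 2 KO samples (Trp53-/-), both carried in the same line. The labels used here do not say how the KO line was made or whether it is a single clone.

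Cdkn1a encodes p21, an inhibitor of cyclin-dependent kinases that holds cells before DNA replication and is among the best known genes switched on by p53. p53 binds DNA as a tetramer, and its response element is a pair of half-sites, each with a core of C, any base, any base and G. Trp53cor1 (lincRNA-p21) is a long noncoding RNA that lies upstream of Cdkn1a, is transcribed in the opposite direction, and is itself induced by p53.

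A match to the p53 response element lay in the upstream Cdkn1a peak. RefSeq (GRCm38.p6, the assembly that mm10 represents) gives Cdkn1a 2 start sites, 2790 bp apart, at positions 29090979 and 29093769 on the plus strand. A promoter window of 300 bases, from 250 before to 50 after each start, was searched for the p53 response element, meaning 2 half-sites of 10 bases that adjoin each other, with at most 2 mismatches outside the C and G of each core. The first line below shows a stretch of 30 bases before the first start, with both cores in capitals. The second line shows a stretch of 30 bases before the second start, in which no element was found, with the letters TATAA in capitals.
Cdkn1a, first start (chr17:29090923-29090952, plus strand): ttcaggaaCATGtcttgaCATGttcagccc
Cdkn1a, second start (chr17:29093732-29093761, plus strand): ctgggccgacgcTATAAggaggcagctcga

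The 3 WT-specific peaks sat at the Cdkn1a starts and at the near end of Trp53cor1. At Cdkn1a, the upstream peak of 1800 bp covered positions 29090346 to 29092145, and the downstream peak of 2094 bp covered 29093503 to 29095596. The upstream peak ran from position -633 to position 1166 relative to the first start, and held the whole promoter window of that start. The downstream peak ran from position -266 to position 1827 relative to the second start, lay entirely within the RefSeq span of Cdkn1a, and held the whole window of the second start. Each start of the arrest gene thus had a peak of its own. At Trp53cor1, a peak of 988 bp covered positions 29078487 to 29079474, with 640 bp inside the right-hand end of the gene (position 29079126) and 348 bp beyond it, toward Cdkn1a. The deposited annotation placed all 3 in the promoter class, which held 15.2% of the 2127 WT-specific peaks, and gave them the names Cdkn1a, Cdkn1a and Trp53cor1.

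The fourth peak, of 482 bp at positions 29007752 to 29008233, was in the WT list only. It lay 278 bp inside the edge of the window. It spanned the start of Stk38 (position 29007995, minus strand), the gene of a serine/threonine kinase also called Ndr1, and its midpoint was 2.5 bp from that start. It was not on the WT-specific list, and so had no feature or repeat label, although no KO peak overlapped it. The WT-specific list held 31.0% of all WT peaks. Of the 2768 WT peaks that no KO peak overlapped, 25.7% were left out of it in the same way. Those 712 peaks had a median width of 225 bp, and the Stk38 peak was wider than 90.6% of them. In the other direction, the WT-specific list held some WT peaks that a KO peak did overlap. At Plk2, for example, 2 WT-specific peaks and 2 WT peaks lay in the gene or within 5 kb, and 1 WT peak there was overlapped by a KO peak. The next peak outside the window was a WT-specific peak of 718 bp, 9169 bp beyond the right edge, which the annotation placed in the 5' UTR of Cpne5, a gene of the calcium-dependent copine family.

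**Figure D1:**
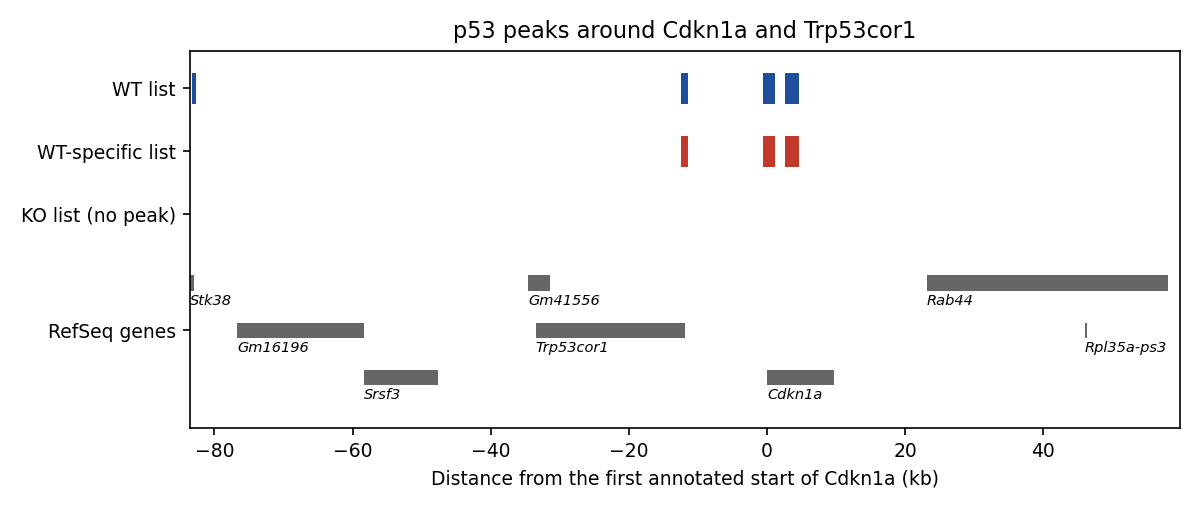
Peaks of the 3 deposited lists (upper rows) and RefSeq genes (lower rows, staggered to separate them) across the window, by distance in kb from the first annotated start of Cdkn1a. The WT list has 4 peaks, the WT-specific list 3 at Trp53cor1 and Cdkn1a, and the KO list none.

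No KO peak lay in the window of 143.249 kb. All 4 WT peaks were free of an overlapping KO peak, as were 40.6% of the 6811 WT peaks in all. The absence of KO peaks was common at this scale, since 69.1% of 49939 RefSeq genes had no KO peak within 50 kb. The nearest KO peak stood 190.472 kb to the right of the downstream Cdkn1a peak, and 65.7% of WT-specific peaks were closer than that to a KO peak. From the nearest KO peak on the left to the nearest on the right was a stretch of 774.846 kb, longer than 91.3% of the 9762 gaps between neighbouring KO peaks (median 45.483 kb). It was picked because it holds the locus, and a given place falls more often in a long gap than in a short one. Its rank among all gaps therefore overstates how unusual it is. The stretch around the locus held 7 WT peaks, of which 5 were WT-specific. The lists carry no read depth, so a KO signal below the authors' calling threshold cannot be told apart from none. Peak positions do not measure the amount of p53, so the knockout itself was not checked here.

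The peaks closed up toward Cdkn1a. The gap from the Stk38 peak to the Trp53cor1 peak was 70.253 kb, the next gap, to the upstream Cdkn1a peak, was 10871 bp, and the last gap, between both Cdkn1a peaks, was 1357 bp. The genes themselves are 11852 bp apart, so that the Trp53cor1 and upstream Cdkn1a peaks sat at the facing ends of the pair and left most of the DNA between them without a peak. Midpoints of those peaks were 12265 bp apart, and midpoints of the Cdkn1a peaks were 3304 bp apart, close to the 2790 bp between the starts.

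Close neighbours were rare among WT-specific peaks as a whole. Of 2106 pairs of adjacent WT-specific peaks on a chromosome, 28 (1.33%) were no farther apart than the Cdkn1a peaks, and the median gap was 585.457 kb. The annotation gave 9 adjacent pairs of promoter peaks to 1 and the same gene. Among these the Cdkn1a pair had the largest summed width, 3894 bp, against a median of 1868 bp. Others among the 9 were at Phlda3, an inhibitor of Akt signalling (2709 bp, gap 726 bp), Plk2, a polo-like kinase (2312 bp, gap 1222 bp), Mdm2, the ubiquitin ligase that degrades p53 (1940 bp, gap 637 bp), Zmat3, an RNA-binding protein (1765 bp, gap 516 bp), and Glipr1, whose peaks stood farther apart (1739 bp, gap 5133 bp). At Phlda3, Mdm2, Zmat3 and Glipr1 a wide peak had a narrow companion, of 244, 361, 216 and 192 bp. At Plk2, as at Cdkn1a, both peaks were wider than the promoter-class median of 483 bp, at 858 and 1454 bp. The Cdkn1a pair was the 1 adjacent WT-specific pair at any gap in which both peaks reached 1800 bp. That cut-off is the width of the narrower Cdkn1a peak, so the Cdkn1a pair meets it by construction. Few other peaks could meet it, since the narrower Cdkn1a peak ranked 17 by width in the WT-specific list.

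The widths at the locus were far above the list medians for Cdkn1a and nearer to them for the other peaks. The downstream Cdkn1a peak ranked 10 of 2127 WT-specific peaks by width and was 4.61 times the median of 454 bp. The upstream Cdkn1a peak ranked 17 and was 3.96 times the median. Among the 324 peaks of the promoter class, whose median was 483 bp, they ranked 5 and 8. The Trp53cor1 peak, at 2.18 times the median of the WT-specific list, ranked 161 and was wider than 92.4% of it. The Stk38 peak was wider than 68.8% of the WT list, whose median was 338 bp. Width is the 1 quantity per peak in these files. It is not a signal height, and it can reflect 1 site or several close together. With 1 list per genotype, none of these values has a replicate check.

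**Figure D2:**
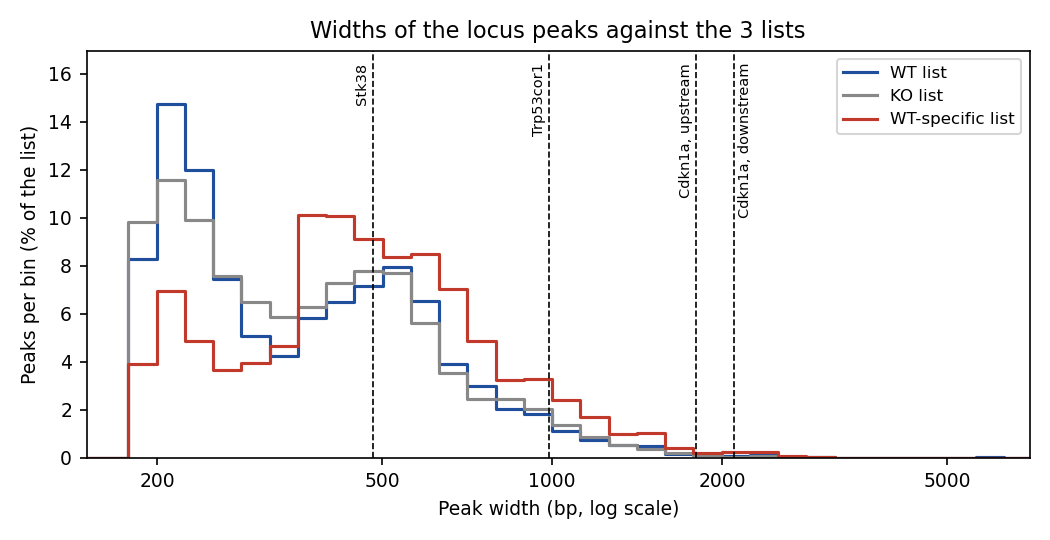
Share of each list's peaks (%) by width in bp on a log scale, with dashed lines at the 4 peaks of the locus. The Cdkn1a peaks, at 1800 and 2094 bp, lie in the far right tail, the Trp53cor1 peak at 988 bp on the shoulder, and the Stk38 peak at 482 bp near the bulk of the lists.

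All 3 WT-specific peaks of the locus carried an annotated repeat, as did 67.9% of WT-specific peaks and 40.4% of those in the promoter class (95% exact binomial interval 35.0 to 46.0). SINEs, short elements copied from small RNA genes, were in 2 of the 3, against 10.9% of the whole list and 14.2% of its promoter class. A simple repeat was in 1 of the 3, against 4.51% of the list and 5.56% of the promoter class. All 3 peaks were wider than the list median, so each had more bases in which to meet a repeat. These shares were not matched for width. None of the 3 had a long terminal repeat of an endogenous retrovirus, a class that was in 46.8% of the list and in 16.7% of its promoter peaks (12.8 to 21.2).

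In the Cdkn1a peaks the repeats took up small parts and lay toward the edges, and at Trp53cor1 they took up a larger part. At Trp53cor1, a pair of ID_B1 elements of the B4 family, both on the minus strand, overlapped the left part of the peak by 183 and 121 bp and covered 30.8% of it together. In the upstream Cdkn1a peak, a B4 element of 100 bp began 13 bp from the left edge, and overlapping PB1D11 and ID_B1 elements lay at the right edge, with 15.2% of the peak covered by all 3. In the downstream Cdkn1a peak, the annotated repeat was a (TG)n stretch of 83 bp that ended 205 bp before the right edge and covered 3.96% of it. For comparison, the median cover among WT-specific peaks with a repeat was 62.5%, and 34.4% in the promoter class. No midpoint of the 3 peaks fell in a repeat, whereas 49.7% of WT-specific midpoints did, and 19.8% of those in the promoter class. ID_B1 was in 29 of the 2127 WT-specific peaks (1.36%), so that the Trp53cor1 and upstream Cdkn1a peaks were 2 of these 29.

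**Figure D3:**
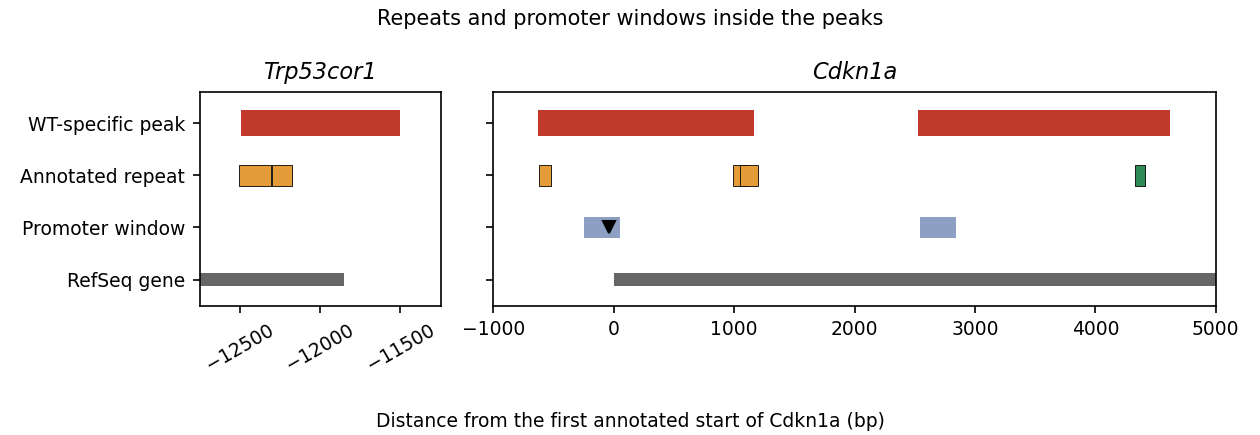
WT-specific peaks (red), annotated repeats (orange, SINEs; green, the simple repeat), RefSeq promoter windows of 300 bases (blue) and gene spans (grey), by distance in bp from the first start of Cdkn1a. The panels have different scales, and the black triangle marks the p53 response element. The repeats sit at the left side of the Trp53cor1 peak, at both edges of the upstream Cdkn1a peak and toward the right edge of the downstream one.

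The windows of the 2 Cdkn1a starts differed in composition as well as in the element. The first window held 3 copies of CATG, a core of the half-site that reads the same on both strands, and 10.8% of all 32851 promoter windows in the table held at least 3. It had 2 CpG dinucleotides, against a median of 7 over all windows, and a GC content of 54.7%. The second window held 0 copies of CATG, 23 CpG dinucleotides and a GC content of 64.7%. TATAA, searched on the strand of the gene between 45 and 16 bases before the start, was in the second window and not in the first, and in 3.89% of all windows. The arrest gene thus had a peak over a CpG-poor start whose window held a p53 response element. Its other peak lay over a CpG-rich start whose window held TATAA. The element lies upstream of both starts, in a peak that ran from -3423 to -1624 relative to the second. Which start it serves was not tested. CAAG, which was counted on both strands and so takes in CTTG, occurred 5 times in the first window and 1 time in the second, and 90.6% of all windows held it.

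The element before the first start covered positions 29090928 to 29090947, bases -51 to -32 from the start. It had no mismatch in its left half-site and 1 in its right. It lay 32.9% of the way along the upstream peak, 308 bp from the midpoint on the left, and 469 bp from the nearest annotated repeat. Its left half-site was also the right half-site of another match, from position 29090906, which had no mismatch and 12 bases between the half-sites. With up to 13 bases allowed between half-sites and no mismatch, 0.0731% of all windows held a match. The spaced pair CATGNNNNNNCATG, chosen after the sequence was seen, was in 0.712% of all windows. The window of Stk38, of which the WT peak overlapped 288 bases, held no response element, and neither did those of Srsf3, a splicing factor gene, and its neighbour Gm16196, which had no peak. These searches covered the promoter windows and not the rest of each peak.

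Response elements in promoter windows were more common under WT-specific peaks than under KO peaks. Of 163 windows that a WT-specific peak overlapped by at least 1 bp, 15 held the element, 9.20% (95% exact binomial interval 5.24 to 14.7). Of 1020 windows that a KO peak overlapped, 2 did, 0.196% (0.0238 to 0.706), and of 447 under WT peaks shared with KO, 0 did (upper bound 0.822%). In all 32851 windows the share was 0.326%. The first Cdkn1a window is 1 of the 15 and the second is 1 of the 148 without it. Intervals cover counting error only and treat windows as independent, although a gene can have overlapping windows. Median CpG counts were 19 under WT-specific peaks and 19 under KO peaks.

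**Figure D4:**
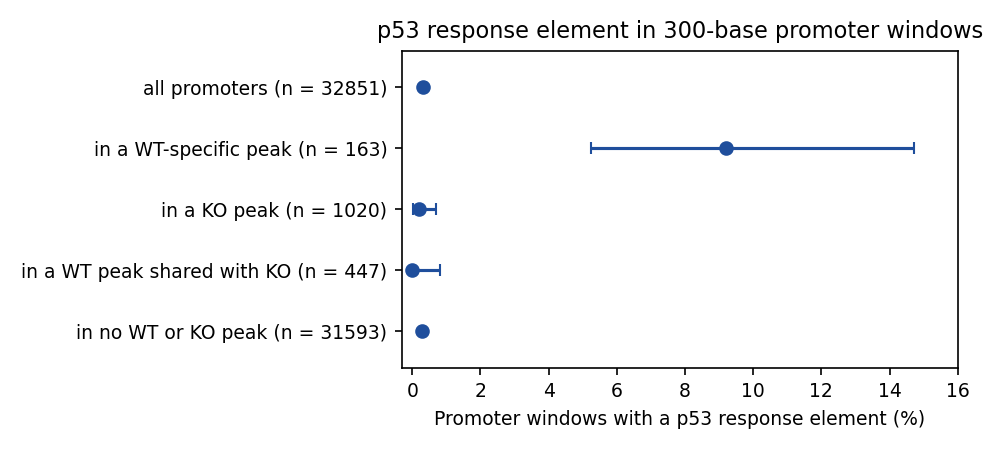
Percentage of 300-base RefSeq promoter windows with a p53 response element (at most 2 mismatches, no bases between half-sites), with 95% exact binomial intervals, by the peaks that overlap the window. The share is 9.20% under WT-specific peaks and below 1% in the other sets.

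Other genes of the pathway show how the element at Cdkn1a compares. Over 3 lists of related genes (p53 targets of arrest and feedback, CDK inhibitors, and noncoding RNA genes reported as p53 targets), 26 genes had 33 promoter windows, and 11 of these windows lay under a WT-specific peak. The element was in 4 of the 11, against 9.20% of all windows under WT-specific peaks. It was in 0 of the other 22, which is close to the 0.326% of all promoter windows. The sequences of those 4 are shown with the core of each half-site in capitals, each on the strand of its gene, since they let the Cdkn1a element be read against those of other p53 targets.
Cdkn1a (chr17:29090928-29090947, plus strand): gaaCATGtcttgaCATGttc
Ckap2 (chr8:22186003-22186022, minus strand): agaCATGtcctgaCTTGtca
Ccng1 (chr11:40755462-40755481, minus strand): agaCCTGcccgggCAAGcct
Gtse1 (chr15:85859945-85859964, plus strand): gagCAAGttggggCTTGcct
Cdkn1a was the 1 gene of the 4 with CATG in both cores. Ckap2, a spindle protein gene, had CATG in 1 core, with 2 mismatches in all, and the other genes had 1 each. Gtse1, whose product restrains p53, had its element at bases -1 to 18, across the start. That of Ccng1, the gene of cyclin G, was at bases -195 to -176, and that of Ckap2 at bases -203 to -184. Peaks around these elements were 707 bp wide at Ckap2, 736 bp at Gtse1 and 1415 bp at Ccng1, each narrower than the upstream Cdkn1a peak.

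Among inhibitors of cyclin-dependent kinases, Cdkn1a was the 1 of 7 with a WT-specific peak in the gene or within 5 kb of it. Over all RefSeq genes, 3.32% had such a peak and 11.3% had a KO peak in that range. The peak at Cdkn1a was known when the list was made, since the locus was chosen for this gene. At a share of 3.32%, a list this short would often hold no other gene with such a peak. Cdkn1b, which encodes the related inhibitor p27, had 2 WT peaks, both of them overlapped by KO peaks (5.67% of all genes had a WT peak of that shared kind). Cdkn1c, Cdkn2a, Cdkn2b, Cdkn2c and Cdkn2d had neither a WT nor a KO peak in that range.

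Of 20 genes of arrest and p53 feedback, 12 had a WT-specific peak in the gene or up to 5 kb away, against 3.32% of all RefSeq genes, and 6 had a KO peak, against 11.3%. At least 2 WT-specific peaks were found for 5 of the 20, Cdkn1a among them, and for 0.376% of all RefSeq genes. Of 9 noncoding RNA genes, 5 had a WT-specific peak, against the same 3.32%: Trp53cor1, Pvt1, Neat1, Mir34b and Mir34c, the last pair sharing 1 peak of 725 bp. The ranges of Trp53cor1, Neat1, Mir34b and Mir34c held 0 KO peaks, and that of Pvt1, a long gene beside Myc, held 7. Of all 9, 3 had a KO peak, against 11.3% of RefSeq genes. Besides Pvt1 these were Lncpint with 4 and Dleu2 with 1, and neither had a WT-specific peak in that range. These lists were drawn up from known p53 biology, with earlier results of these data in view.

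Counting all WT-specific peaks within 50 kb, Cdkn1a and Trp53cor1 had 3 each, the same 3. At least 3 were found for 0.302% of RefSeq genes and at least 1 for 11.9%. On the lists, Btg2, an antiproliferative gene, Mdm2, Sesn2, a stress-induced inhibitor of mTORC1 signalling, and Neat1, a noncoding RNA of nuclear paraspeckles, also had 3, and Trp53inp1, a p53-induced nuclear protein gene, had 5. Their windows differed in KO peaks: Cdkn1a and Mdm2 had 0, Sesn2 and Trp53inp1 had 2, Neat1 had 4 and Btg2 had 9. Summed widths of WT-specific peaks were 4882 bp at Cdkn1a, 3323 bp at Trp53inp1, 3309 bp at Mdm2, 2846 bp at Neat1, 2810 bp at Btg2 and 1714 bp at Sesn2. By summed width Cdkn1a, Trp53cor1 and the overlapping Gm41556 tied at rank 12 of all RefSeq genes, and 1 of the 11 genes above them, Rab44, which encodes a Rab family GTPase, has a window that holds the same 3 peaks and the Cpne5 peak.

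**Figure D5:**
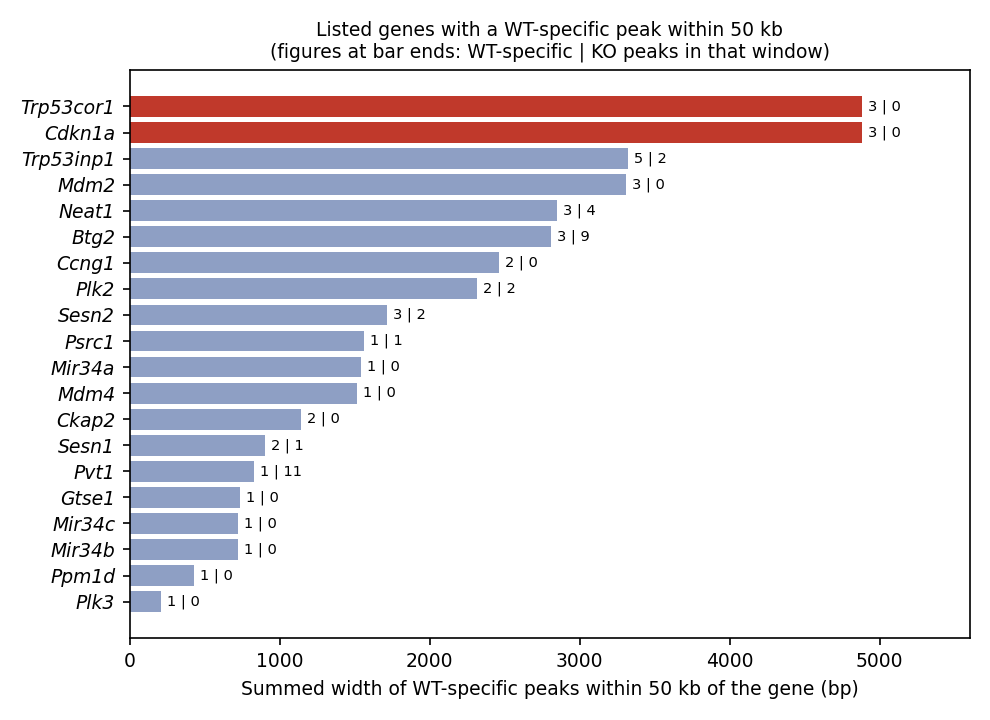
Summed width in bp of the WT-specific peaks within 50 kb of each listed gene that has at least 1, with the counts of WT-specific and KO peaks in that window at the end of each bar. Cdkn1a and Trp53cor1 (red), which share their 3 peaks, have the longest bars at 4882 bp with 0 KO peaks.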

How the data were processed

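p53 CUT&RUN was done in 2 WT and 2 KO samples of a series of 21. The 6 deposited tables hold 1 WT list (6811 peaks), 1 KO list (9784), the WT-specific list (2127) with a feature label and repeats per peak, and no score. The values deposited by the authors are peak coordinates. Per the submitters' processing notes, the tools were MACS2, Bowtie2, fastp and deepTools, and the build mm10. Their settings, whether samples were pooled for peak calling, and how WT-specific peaks were chosen are not stated in the sources used here. Starts were read as 0-based and are printed 1-based. The histone and IgG libraries were not analysed here.

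Overlap meant at least 1 bp. Gene spans and promoter windows came from RefSeq tables of GRCm38.p6. All 35 listed genes matched a gene there, and Trp53cor1 had no promoter window. No test across samples was possible with 1 list per genotype, so counts are set beside those of the whole lists. Depth is unknown. The interval counts and the motif search were tested on simulated data. The members and gene lists were chosen with earlier results of these data known. Genes named are those of the window and the 3 lists. Phlda3, Zmat3 and Glipr1 were named after their values were seen. Computations used Python 3.11.15, numpy 2.4.6, pandas 2.3.3 and scipy 1.17.1.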

Additional observations from a re-analysis of the deposited data

How the results depend on the processing

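Windows of 20 and 100 kb gave 3 and 6 WT peaks and 3 and 4 WT-specific peaks, against 4 and 3 at 50 kb, and 0 KO peaks each. No WT peak of the window was overlapped by a KO peak when 50% cover was required or when KO peaks within 500 bp counted. Neither setting could change the count. Overlap was already 0 at 1 bp, and the nearest KO peak stood 190.472 kb away. The median width of the peaks in the window was 1394 bp for the 4 WT peaks and 1800 bp for the 3 WT-specific peaks. Within 20 kb it was 1800 bp. The smallest spacing, 1357 bp between edges, was 3304 bp between midpoints, by construction. Of the 3 peaks with a repeat, 0 had at least 50% of the peak covered by repeats, 0 had the midpoint in a repeat, and 2 had a repeat other than a simple one. Counts of listed genes stayed within 1.5 times with the deposited gene names or 50 kb. The 2 other element searches, chosen after seeing the data, each found 1 match in the first Cdkn1a window and 0 in the second. For the search with at most 1 mismatch and no spacer this was fixed in advance. It is contained in the main search, and the element has 1 mismatch. The search with no mismatch and a spacer of up to 13 bases is not contained in it. No paired analysis was possible because each genotype has 1 peak list for both its samples, and for the same reason no replicate could be left out.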

Other observations

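The loci with more summed WT-specific width than Cdkn1a within 50 kb, named after their values were seen, fell in 2 other places. The first was on chromosome 17 around Tcte3, a dynein light chain gene (positions 15027154 to 15041559), where 7 WT-specific peaks summed to 6432 bp with 0 KO peaks. The other was on chromosome 1 around Phlda3 and its neighbours Csrp1 and Tnni1, where 5 WT-specific peaks summed to 5122 bp and the Phlda3 window also held 4 KO peaks. In the 2106 pairs of adjacent peaks, a second promoter pair on chromosome 17 belonged to Ermard, beside Tcte3, with peaks of 265 and 1450 bp that stood 11869 bp apart.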
